A study of Mus musculus with 6 samples.

Results

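Small RNAs of piRNA length that match the opposite strand of annotated transcripts were followed through 6 libraries of cultured mouse spermatogonial stem cells. A sequence was taken when it was 25 to 31 nt long, had no exact match on either strand to a small RNA biotype of GENCODE M21 (microRNA, snoRNA, snRNA, rRNA and the like), matched at least 1 GENCODE M21 transcript exactly in the antisense direction and matched none exactly in the sense direction. This left 131948 distinct sequences, of 8037421 distinct piRNA-like sequences (25 to 31 nt, no small RNA match) and of 11729247 distinct sequences of any length in the series. Together they held 694891 reads. They are called antisense-only sequences here, a name that refers to strand alone, since no target was measured.

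The cells came from a 15-day-old F1 male of C57BL/6 and DBA2 that carried an actin-EGFP transgene, and they were grown on mouse embryonic fibroblast feeders. The knockouts were made by transient transfection of Cas9 with guides for mHen1 or for Mili; each comes from a picked colony that had been genotyped by Sanger sequencing, and so stands for 1 clone. The libraries were RNA bound to MILI in wild-type cells, wild-type RNA treated with NaIO4 at 200 mM for 1 hour, Hen1 knockout RNA with the same treatment, untreated Hen1 knockout RNA, untreated Mili knockout RNA and untreated wild-type RNA. Each group has 1 library and so no replicate: no p-value is given, intervals cover counting error only, and PCR copies of a molecule were not told apart, since the reads carry no molecular identifiers. Libraries held 25240941, 10282416, 2604390, 11702714, 4808088 and 7322408 reads of 18 to 35 nt in that order, and shares below are of these reads unless another total is named. Untreated wild type is the denominator of 4 of the 5 comparisons, so those 4 are not independent of each other. Small RNA reads do not measure the mRNA of the edited genes, so the knockouts rest on the labels here.

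piRNAs are small RNAs of the germ line that guide PIWI proteins. MILI (Piwil2) is a PIWI protein of spermatogonia, and many of its guides begin with U, read as T here. Hen1 (Henmt1 in mouse) adds a methyl group to the 2′ oxygen of the last nucleotide, which protects a piRNA from trimming and from the addition of bases. NaIO4 oxidises an unmethylated 3′ end, which then cannot be joined to an adapter, so reads with a methylated end gain in share after treatment. In the ping-pong cycle a PIWI protein cuts a transcript opposite bases 10 and 11 of its guide, and the cut end becomes the 5′ end of a new piRNA. The 5′ ends of such a pair overlap by 10 nt, and a guide that begins with U leaves A at base 10 of its partner.

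The sequences below are shown because they lead the MILI immunoprecipitate. The first 4 are the leading antisense-only sequences there, without shorter forms of the same 5′ end, and the other 3 were picked after their values were seen, from the 12 leading 5′ ends, to show further genes. They are written 5′ to 3′ as they were read, with coordinates of GRCm38 and their own strand, and capitals mark base 1 and base 10.
Mroh2a 3′ UTR, chr1:88262132-88262160, minus: TagcaataaAtctgagagcctggcacctt
Gm37625, chr1:128087733-128087761, plus: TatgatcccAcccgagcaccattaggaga
Gm37625, chr1:128087724-128087749, plus: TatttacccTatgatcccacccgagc
Btbd7 non-coding transcript, chr12:102804308-102804335, plus: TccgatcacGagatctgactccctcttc
Tet2 non-coding transcript, chr3:133479605-133479633, plus: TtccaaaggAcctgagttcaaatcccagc
D10Wsu102e 3′ UTR, chr10:83468891-83468917, minus: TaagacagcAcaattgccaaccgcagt
Mfsd4a 3′ UTR, chr1:132026868-132026897, plus: TaaactgaaTtccaaggctgtcatttaccc
All 7 begin with T, and 4 of them have A at base 10. The first of them had 6184 reads in the immunoprecipitate, 1203 in wild type with NaIO4, 16 in the NaIO4-treated Hen1 knockout, 160 in the untreated Hen1 knockout, 0 in the Mili knockout and 534 in untreated wild type. None of the 7 had a read in the Mili knockout, where 0 reads still allow a share of up to 6.24e-05%.

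Antisense-only reads were a small class in every library. They made up 1.33% of the reads in the MILI immunoprecipitate (95% Clopper-Pearson interval 1.33 to 1.34), 1.27% in wild type with NaIO4, 0.484% in the NaIO4-treated Hen1 knockout, 1.29% in the untreated Hen1 knockout, 0.0953% in the Mili knockout and 0.808% in untreated wild type. Of the piRNA-like reads they were 1.81%, 1.95%, 2.08%, 2.17%, 0.737% and 1.92% in the same order. Their part of the piRNA-like reads thus stood near 2% wherever MILI was present and was lowest in the Mili knockout.

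**Figure D1:**
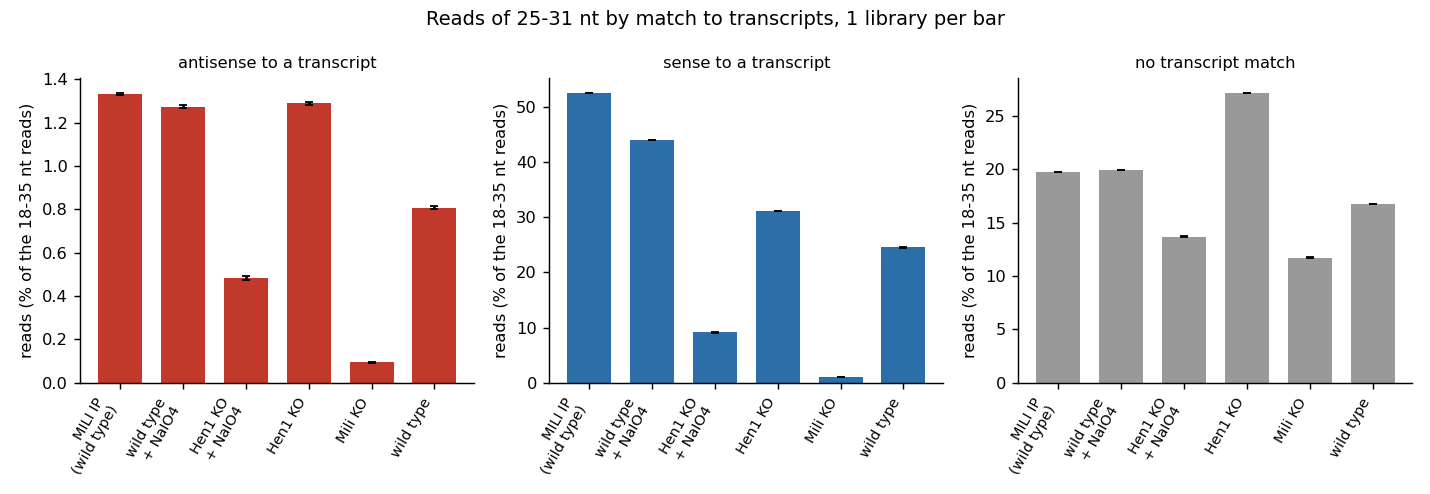
Reads of 25 to 31 nt as a percent of the 18 to 35 nt reads in each of the 6 libraries, split into reads antisense to a transcript, sense to a transcript and without a transcript match (3 panels with different y axes from 0). Bars are single libraries and the short lines are 95% Clopper-Pearson intervals; antisense reads reach 1.33% in the MILI immunoprecipitate and 0.0953% in the Mili knockout.

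The share was 8.47-fold lower in the Mili knockout than in untreated wild type (95% interval 8.22 to 8.73). It was 2.61-fold lower as a share of the piRNA-like reads and 15.02-fold lower per microRNA read. Sense reads were 22.01-fold lower and reads without a transcript match 1.43-fold lower, so the antisense class lay between the others. Its loss differed by first base. Antisense-only reads that begin with T were 34.3-fold lower in the Mili knockout (32.1 to 36.7), with 866 reads against 45261 in untreated wild type. Those that begin with G were 1.73-fold lower (1.64 to 1.83). Of the 290 antisense-only sequences with 20 or more reads over the pair of libraries, 255 fell 2-fold or more below and 12 stood 2-fold or more above untreated wild type, with 0.5 added to each count. Over all piRNA-like sequences 69.5% were lower and 11.8% higher by the same rule.

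What the Mili knockout retained came in part from mitochondrial and tRNA gene loci. Mitochondrial sequences held 0.0300% of the antisense-only reads in the immunoprecipitate and 23.5% in the Mili knockout, against 2.64% in untreated wild type. Places inside nuclear tRNA genes of RefSeq held 0.156% in the immunoprecipitate and 15.5% in the Mili knockout, against 1.79% in untreated wild type. Per library read, the mitochondrial antisense reads stood at 1.05 times and the tRNA gene reads at 1.02 times untreated wild type, with intervals of 0.972 to 1.14 and 0.930 to 1.13. Without both, the class was 13.3-fold lower than in untreated wild type (chosen after the values were seen).

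The sequence with the most reads in the Mili knockout shows this. It lies in the 3′ UTR of Hes7, a transcription factor of the somite clock, inside the place of the tRNA gene n-TRtct4, and is printed with capitals at base 1 and base 10.
Hes7 3′ UTR, chr11:69123542-69123568, minus: GgctctgtgGcgcaatggatagcgcat
It had 28 reads in the immunoprecipitate, 606 in wild type with NaIO4, 275 in the NaIO4-treated Hen1 knockout, 888 in the untreated Hen1 knockout, 659 in the Mili knockout and 976 in untreated wild type. Its share in the Mili knockout was 1.03 times that in untreated wild type (0.932 to 1.14), and in the immunoprecipitate it was 120-fold lower. The rule thus takes in sequences inside tRNA genes of RefSeq that have no exact match among the small RNA biotypes of GENCODE M21.

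The MILI immunoprecipitate held 1.65 times the antisense-only share of untreated wild type (1.64 to 1.67), while sense reads stood at 2.14 times and reads without a match at 1.18 times. By first base, reads with T stood at 1.89 times and reads with G at 0.582 times. The Hes7 sequence held 28 of the 8968 G-initial reads in the immunoprecipitate and 976 of the 4467 in untreated wild type. Among 2118 antisense-only sequences with enough reads, 1143 stood 2-fold or more higher in the immunoprecipitate and 188 stood 2-fold or more lower, beside 56.5% higher and 7.8% lower over all piRNA-like sequences. With shares of the piRNA-like reads 778 (36.7%) stood higher and 441 (20.8%) lower, beside 41905 and 19432 of 106092 over all piRNA-like sequences. Of the distinct antisense-only sequences of NaIO4-treated wild type 40.9% were also seen in the immunoprecipitate, of those of the Mili knockout 4.35% and of those of untreated wild type 44.7%. They held 68.4%, 26.8% and 66.1% of the antisense-only reads of these libraries. The libraries differ in depth, so these shares are not measures of binding. As a share of the piRNA-like reads alone, the antisense-only class stood at 0.944 times untreated wild type, so the direction in the immunoprecipitate depends on the total used.

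NaIO4 moved the class in opposite directions in the 2 genotypes. In wild type the treated library held 1.58 times the share of the untreated one (1.56 to 1.59), against 1.80 times for sense reads. In the Hen1 knockout the treated library was 2.66-fold lower than the untreated one (2.62 to 2.71), against 3.41-fold for sense reads. The ratio of the 2 NaIO4 ratios, Hen1 knockout over wild type, was 0.238 (0.233 to 0.243), and the difference was not tested for want of replicates. As shares of the piRNA-like reads the NaIO4 ratios were 0.959 in the Hen1 knockout and 1.02 in wild type, and the ratio of both was 0.943. Per microRNA read the Hen1 knockout value was 1.07, so the size of the contrast and this direction depend on the total used. In wild type, 464 of 1062 antisense-only sequences stood 2-fold or more higher with NaIO4 and 51 stood 2-fold or more lower, beside 43.4% and 7.18% over all piRNA-like sequences. With shares of the piRNA-like reads 222 (20.9%) stood higher and 128 (12.1%) lower, beside 10211 and 6220 of 43790 over all piRNA-like sequences. In the Hen1 knockout, 53 of 948 stood 2-fold or more higher and 693 stood 2-fold or more lower, beside 3.94% and 73.1%. With shares of the piRNA-like reads 153 (16.1%) stood higher and 390 (41.1%) lower, beside 3833 and 11250 of 26496 over all piRNA-like sequences.

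The first base again separated the reads. In the Hen1 knockout, antisense-only reads that begin with T were 3.42-fold lower with NaIO4 (3.34 to 3.50), whereas those that begin with G stood at 1.03 times the untreated share (0.978 to 1.08). In wild type, reads with T stood at 1.69 times and reads with G at 1.02 times after treatment. G-initial reads were therefore close to 1 in both genotypes. Mitochondrial antisense reads went the other way from the class as a whole: they stood at 0.437 times in wild type and at 2.25 times in the Hen1 knockout.

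The untreated Hen1 knockout held 1.60 times the antisense-only share of untreated wild type (1.58 to 1.61), against 1.27 times for sense reads and 1.62 times for reads without a match. Of 1209 antisense-only sequences, 679 stood 2-fold or more higher and 166 stood 2-fold or more lower, beside 44.9% and 22.1% over all piRNA-like sequences. Their median ratio was 2.43, beside 1.64 over all piRNA-like sequences. With shares of the piRNA-like reads 548 (45.3%) stood higher and 236 (19.5%) lower, beside 14060 and 11263 of 38422 over all piRNA-like sequences. Counted by distinct sequence rather than by read, the ratio of shares was 0.986, so the direction depends on counting reads.

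T was the most frequent first base of the class wherever MILI was present, as it was for sense reads. It was found in 87.6% of antisense-only reads in the immunoprecipitate, 82.2% in wild type with NaIO4, 63.7% in the NaIO4-treated Hen1 knockout, 81.9% in the untreated Hen1 knockout, 18.9% in the Mili knockout and 76.5% in untreated wild type. Sense reads began with T in 87.4%, 84.8%, 81.6%, 84.5%, 24.7% and 82.5% in the same order. T at base 1 thus does not set the class apart from sense reads. G led in the Mili knockout, with 36.96% of its antisense-only reads, against 7.55% in untreated wild type. Of the 1694 G-initial reads of the Mili knockout, 659 were the Hes7 sequence. A at base 10 stood at 36.6%, 38.5%, 31.4%, 35.8%, 16.6% and 38.2% in the library order just given. Sense reads had 28.5%, 30.3%, 31.03%, 30.6%, 19.5% and 30.6%. A at base 10 was thus more frequent among antisense-only than sense reads in 4 of the 5 libraries with MILI and less frequent in the Mili knockout. In the NaIO4-treated Hen1 knockout the intervals overlapped (30.6 to 32.2% for antisense-only and 30.8 to 31.2% for sense reads), and the antisense-only value was 29.9% without Gm37625. In the immunoprecipitate it was more frequent among antisense-only reads that do not begin with T (42.9%) than among those that do (35.8%).

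**Figure D2:**
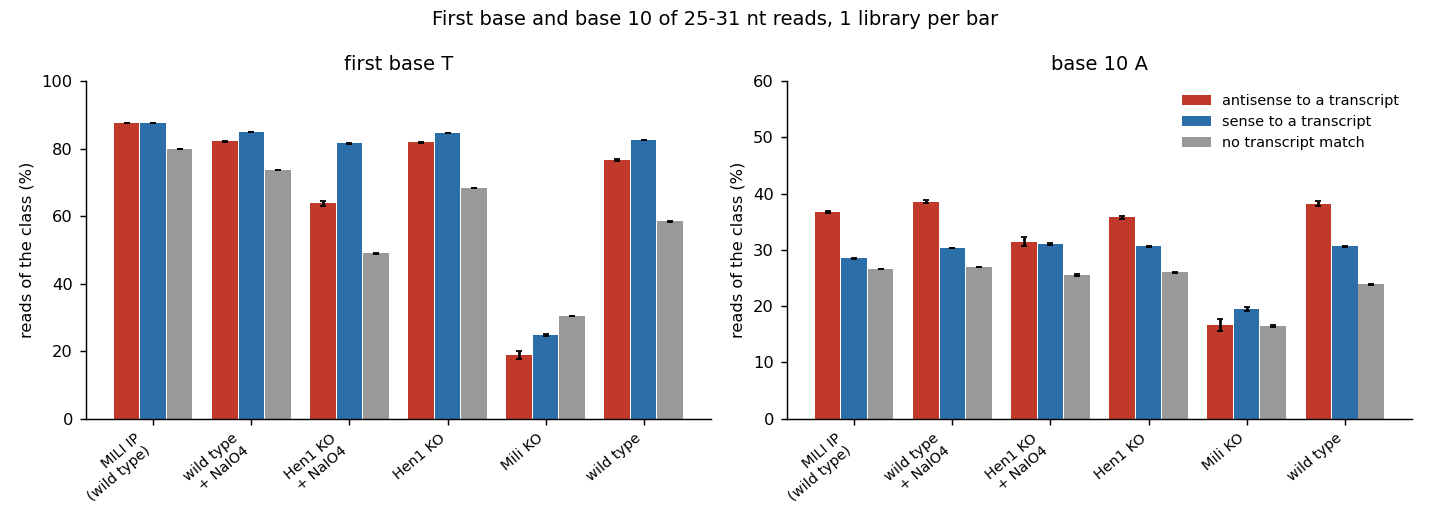
Percent of 25 to 31 nt reads with T as the first base (left) and with A as base 10 (right) in each library, for reads antisense to a transcript, sense to a transcript and without a match. Bars are single libraries with 95% Clopper-Pearson intervals; for base 10 A the antisense bar is clear of the sense bar in 4 of the 5 libraries with MILI, and for first base T it is at 18.9% in the Mili knockout.

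Most antisense-only sequences had a single place among annotated transcripts. No genome sequence or repeat annotation was searched, so copies outside annotated transcripts were not seen. Of them 88.1% matched 1 gene, 87.8% had 1 place in the genome as far as transcripts show it, and 115 matched 20 or more genes. They were also rarely shared between libraries: 83.6% were seen in 1 library only, and these held 30.3% of the reads, while 17 sequences were seen in all 6. By annotation, 33.6% of the distinct sequences lay in 3′ UTRs, 19.9% in coding sequence, 14.0% in non-coding transcripts of coding genes, 12.4% in long non-coding RNAs, 8.44% in pseudogenes, 6.95% in TEC genes (transcript models still to be tested by experiment) and 4.81% in 5′ UTRs. By reads TEC genes held 22.5%, most of it from 1 gene. A sense match turned up for 23.8% of the sequences and 40.4% of the reads once 1 mismatch was allowed.

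Many of the loci lay next to a gene on the strand of the small RNA itself. Among antisense-only sequences with 1 place, outside the mitochondrial genome, 17.3% were inside a gene on their own strand. Another 42.0% lay within 10 kb downstream of the annotated end of a gene on that strand. For comparison, exon bases were taken from nuclear chromosomes, without small RNA exons and without bases that have an exon on the other strand. Of these bases, 9.45% lie inside a gene on the other strand and 17.9% within 10 kb downstream of one. The antisense-only sequences inside and downstream of a gene held 16.3% and 31.3% of the reads of the single-place sequences. Whether these reads come from unannotated ends of the neighbouring transcripts was not tested.

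Reads were spread over 13042 genes but heavily weighted to a few. In the immunoprecipitate 9675 genes had such reads from sequences that match 1 gene, 532 genes had at least 50, and the first 3 genes held 30.6% of them. The 12 genes with the most reads there were Gm37625, Mfsd4a, Mroh2a, D10Wsu102e, Btbd7, Gm18609, Gm26809, Tet2, Gm47652, Gm48009, Bcl2l13 and Gtpbp8. In the Mili knockout 7 of these 12 had 0 reads and the other 5 had 3 to 7. All 12 were higher with NaIO4 in wild type, by ratios of 1.43 to 2.47, and all 12 were lower with NaIO4 in the Hen1 knockout, by 3.23 to 6.39-fold. All 12 were higher in the untreated Hen1 knockout than in untreated wild type (1.42 to 3.13 times) and higher in the immunoprecipitate (1.17 to 3.40 times). The 12 were chosen by their reads in the immunoprecipitate, so the last of these is tied to the choice and is no separate result.

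Gm37625, a TEC gene on the minus strand at chr1:128084460-128089331, was the leading source in 5 libraries. Its antisense-only reads numbered 43662 in the immunoprecipitate, 24108 in wild type with NaIO4, 1948 in the NaIO4-treated Hen1 knockout, 34727 in the untreated Hen1 knockout, 7 in the Mili knockout and 10797 in untreated wild type. That is 21.2% of the single-gene reads of untreated wild type and 26.02% of those of the untreated Hen1 knockout. They came from 533 different 5′ ends between positions 128087171 and 128089315, and no annotated gene on their own strand ends within 10 kb upstream of them. Over all libraries 64.0% of these reads also match some transcript in the sense direction at 1 mismatch. In the immunoprecipitate 89.9% began with T and 45.8% had A at base 10. Sense reads of piRNA length were fewer, at 3703 in the immunoprecipitate and 539 in untreated wild type. The share was 3.97-fold lower with NaIO4 in the Hen1 knockout (3.79 to 4.15) and 1013-fold lower in the Mili knockout than in untreated wild type, a ratio that rests on 7 reads.

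Mfsd4a encodes a transporter of the major facilitator superfamily. It had 23529 antisense-only reads in the immunoprecipitate, 9587 in wild type with NaIO4, 645 in the NaIO4-treated Hen1 knockout, 10311 in the untreated Hen1 knockout, 4 in the Mili knockout and 3614 in untreated wild type. Its reads came from 1099 different 5′ ends, 81.6% of the reads of all libraries lay in its 3′ UTR, and 99.4% lay inside Elk4, an ETS-family transcription factor gene that runs on the opposite strand and overlaps it. Elk4 itself had 14734 sense reads of piRNA length in the immunoprecipitate, 0 in the Mili knockout and 1913 in untreated wild type.

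Mroh2a, a gene of the maestro heat-like repeat family, had 23304 antisense-only reads in the immunoprecipitate, 5114 in wild type with NaIO4, 304 in the NaIO4-treated Hen1 knockout, 5069 in the untreated Hen1 knockout, 0 in the Mili knockout and 2080 in untreated wild type. The Mili knockout was at least 455-fold lower than untreated wild type, with 3 reads set for the 0. Over all libraries 99.3% of these reads lay in the 3′ UTR, and their median position was 339 nt downstream of the annotated end of Hjurp, which encodes the chaperone of centromeric histone H3 and lies on the strand of the small RNAs. Hjurp had 14290 sense reads of piRNA length in the immunoprecipitate, 0 in the Mili knockout and 2190 in untreated wild type. No sense read of piRNA length was found on Mroh2a in the immunoprecipitate. A stood at base 10 of 70.7% of its reads there, and 26.5% of them were a single sequence, the first shown above. All lengths of 22 to 35 nt from the 5′ end of that sequence share this A. Those that match the transcript throughout had 13789 reads in the immunoprecipitate, so the base 10 value rests largely on 1 end.

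Downstream position was common among the other leading genes as well. Of the 12, 1 had its reads inside a gene on their own strand, 7 within 10 kb downstream of one and 4 farther away. Reads opposite Bcl2l13, a mitochondrial member of the BCL2 family, had their median 1657 nt downstream of Bid, a cell death gene of the same family on the other strand. Reads opposite Gtpbp8 lay 1126 nt downstream of Nepro, and those opposite the pseudogene Gm18609 1531 nt downstream of the long non-coding RNA Gm10010, which had 4375 sense reads in the immunoprecipitate and 1 in the Mili knockout. Btbd7, Tet2 and D10Wsu102e had no gene end within 10 kb upstream on that strand. Tet2, which encodes a dioxygenase of 5-methylcytosine, had 3535 reads in the immunoprecipitate. Its 49 sequences all lay between positions 133479593 and 133479639, and all of them also match some transcript in the sense direction at 1 mismatch. Such a match held for 76.0% of the reads of all libraries on Gm47652, 37.6% on Gm26809 and 36.3% on D10Wsu102e. Apart from Gm37625, it held for at most 0.574% on the rest of the 12. Whether reads assigned to Btbd7, Tet2 or the other genes come from copies of a repeat was not tested, as no repeat annotation was used.

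The balance of strands differed between the leading genes. In the immunoprecipitate 9 of the 12 had fewer sense than antisense-only reads, and 3 (Mroh2a, Gm18609 and Gm48009) had no sense read at all. D10Wsu102e, Gm47652 and Bcl2l13 had more sense reads: D10Wsu102e had 9245 antisense-only and 234219 sense reads, and Bcl2l13 had 3030 and 12732.

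**Figure D3:**
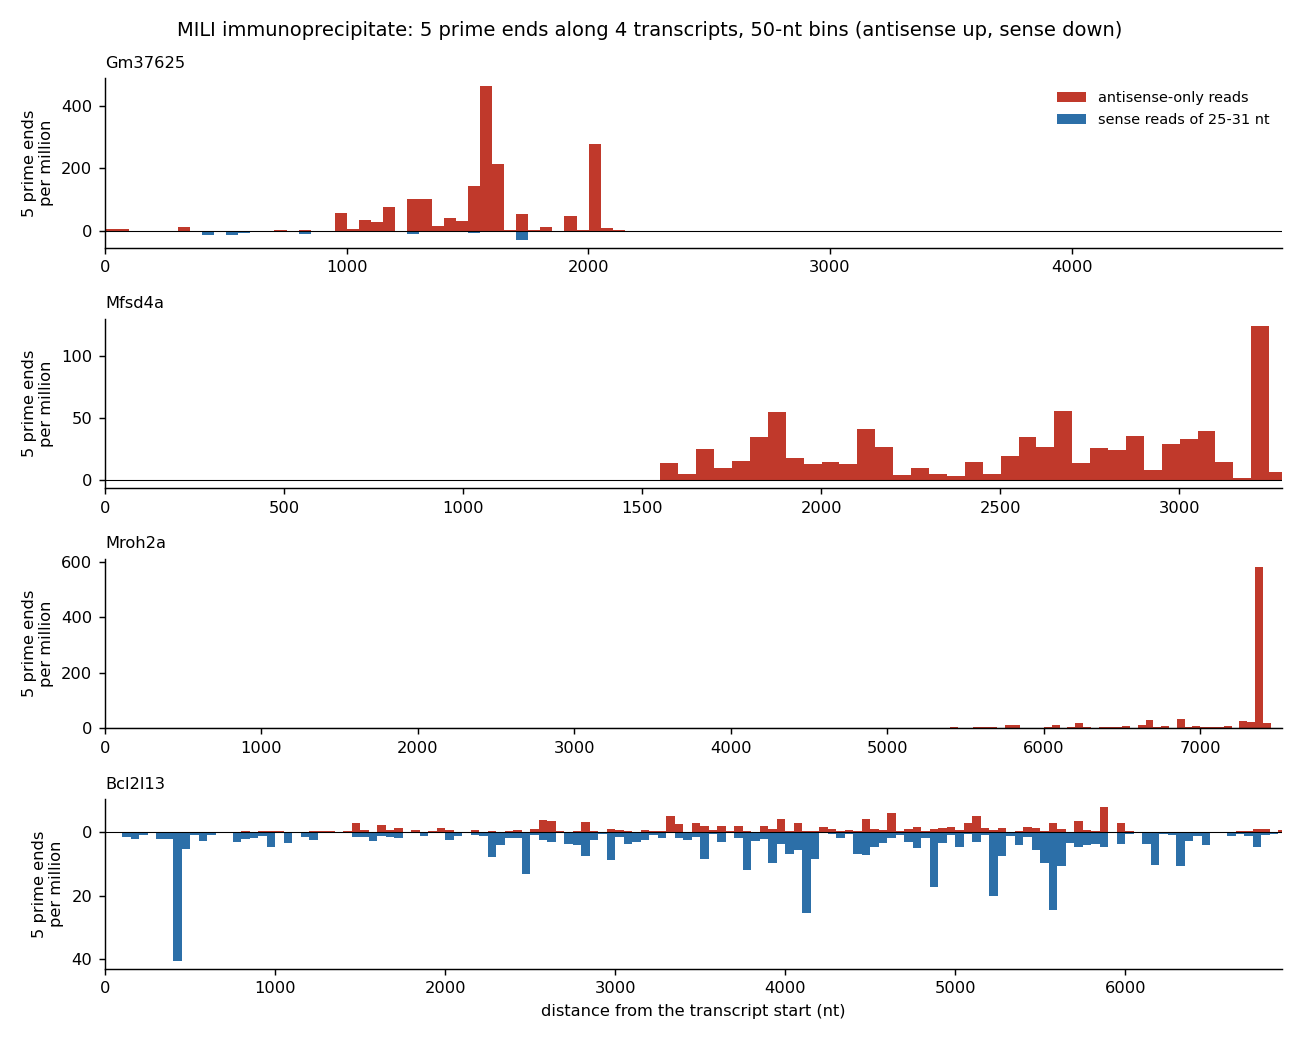
5′ ends in the MILI immunoprecipitate, scaled to the 18 to 35 nt reads (the y axis gives its unit), along 1 transcript each of Gm37625, Mfsd4a, Mroh2a and Bcl2l13 in bins of 50 nt from the transcript start; antisense-only reads point up and sense reads of 25 to 31 nt point down (single library, no error bars, y axes differ). Antisense ends on Mroh2a pile up near the transcript end, where 1 bin holds 62.8% of them, Mfsd4a has them in 35 of 66 bins, and Bcl2l13 has both strands in 107 of 139 bins.

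Partners on the sense strand were counted next. An antisense-only sequence had a partner when a piRNA-like sense sequence in the same library began n nt inside its 5′ end on the same transcript, for n of 1 to 20. An overlap of 10 nt was the most frequent in every library with MILI. In the immunoprecipitate 11.4% of the distinct antisense-only sequences had a partner at 10 nt, and the median over the other overlaps was 7.45%. The same pair of values was 10.9% and 5.24% in wild type with NaIO4, 4.35% and 1.40% in the NaIO4-treated Hen1 knockout, 12.2% and 6.02% in the untreated Hen1 knockout, 2.75% and 2.31% in the Mili knockout and 9.82% and 4.16% in untreated wild type. The Mili knockout had no peak at 10 nt, with 31 of 1126 sequences there and a higher value, 3.02%, at 13 nt. Weighted by reads the 10 nt value was 19.4% in the immunoprecipitate and 15.7% in untreated wild type, against medians of 8.33% and 3.75%. In the treated Hen1 knockout the peak at 10 nt held for distinct sequences but not by reads, where 5.62% stood at 10 nt and 6.47% at another overlap.

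**Figure D4:**
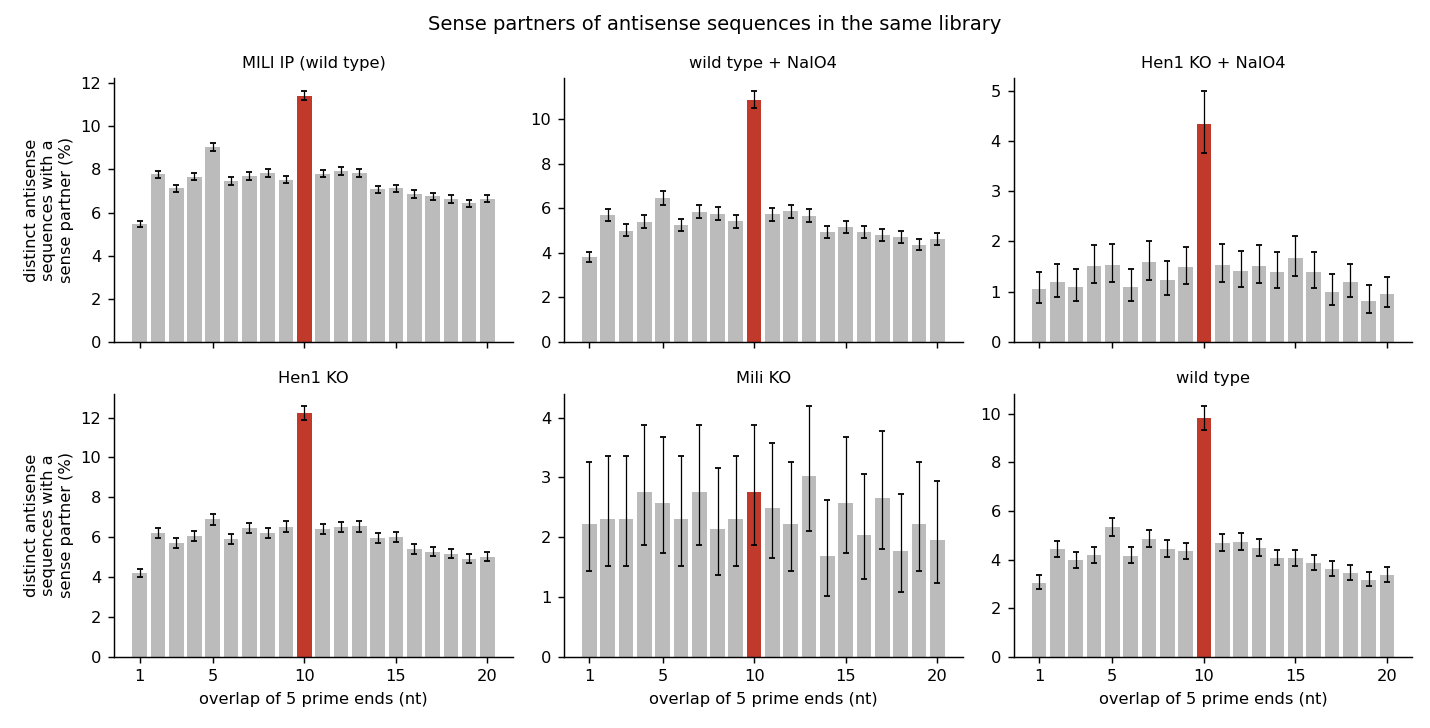
Percent of distinct antisense-only sequences with a sense piRNA-like partner in the same library, against the overlap of their 5′ ends from 1 to 20 nt; 1 panel per library, y axes differ, bars are single libraries with 95% Clopper-Pearson intervals. The bar at 10 nt (red) is the tallest in the 5 libraries with MILI, at 4.35 to 12.2%, and not in the Mili knockout.

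Base 10 followed the partners. Base 10 of an antisense-only sequence pairs with base 1 of its partner at this overlap, so A there is the same observation as T at the partner's start. A stood at base 10 in 60.2% of the antisense-only sequences with such a partner in the immunoprecipitate and in 27.7% of those without; in untreated wild type the values were 65.1% and 31.5%, and in the Mili knockout 19.4% and 23.4%. The immunoprecipitate held 24245 pairs, made of 9796 antisense-only and 13492 sense sequences and of 6182 different pairs of 5′ ends. Of the sense partners 71.7% began with T and 59.7% had A at base 10. By the same pairing, A at base 10 of a partner is T at base 1 of the antisense-only sequence, so these shares are no second observation. T at base 1 stood in 69.6% of the antisense-only sequences with a partner in the immunoprecipitate and in 79.3% of those without.

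Partners were found on 1492 of 9675 genes in the immunoprecipitate and on 303 of the 532 with at least 50 reads. Among the leading genes the share of antisense-only reads with a 10 nt partner was 63.2% on Gm47652, 57.6% on D10Wsu102e, 46.5% on Bcl2l13 and 40.9% on Gm37625. It was 15.9% on Gtpbp8, 8.08% on Gm26809, 0.935% on Mfsd4a and 0.277% on Btbd7, and no read had one on Mroh2a, Gm18609, Tet2 or Gm48009. The leading antisense sources thus ran from loci with partners for most of their reads to loci with none. Mroh2a, Gm18609 and Gm48009 had no sense read in the immunoprecipitate, so no partner was possible there. D10Wsu102e had 234219 sense reads, and other overlaps were not counted by gene. The range therefore does not separate pairing at 10 nt from the number of sense reads on a gene.

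The pair with the most reads by the lower of its 2 counts lay on the long non-coding RNA Gm38246, with 164 antisense-only and 399 sense reads in the immunoprecipitate. On Gm37625 the leading pair had 195 antisense-only and 150 sense reads. These 2 pairs hold a 31 nt sequence each and are not printed. A pair on Gm47652 and one on Bcl2l13 with shorter sequences are shown instead, chosen after their values were seen, to make the 10 nt overlap visible. Capitals mark the first 10 bases, which are complementary within a pair, and coordinates are those of the antisense-only sequence.
Gm47652 antisense-only, chr9:37333758-37333785, plus: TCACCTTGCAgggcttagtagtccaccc
Gm47652 sense partner, minus: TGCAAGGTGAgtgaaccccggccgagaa
Bcl2l13 antisense-only, chr6:120891761-120891788, minus: TGACCTGAGAcactgacaacatcggagg
Bcl2l13 sense partner, plus: TCTCAGGTCAgaaccgtctcagggacacc
On Bcl2l13 the antisense-only sequence had 120 reads in the immunoprecipitate, 91 in wild type with NaIO4, 0 in the NaIO4-treated Hen1 knockout, 3 in the untreated Hen1 knockout, 0 in the Mili knockout and 28 in untreated wild type. Its partner had 84, 9, 0, 2, 0 and 6 reads. On Gm47652 the counts were 93, 14, 13, 9, 0 and 12 for the antisense-only sequence, which also matches another gene, and 91, 122, 0, 25, 0 and 42 for its partner. Neither sequence of either pair had a read in the Mili knockout.

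Antisense-only reads were shorter in the Hen1 knockout. The mean length was 28.0 nt in the immunoprecipitate, 28.1 nt in wild type with NaIO4, 27.3 nt in the NaIO4-treated Hen1 knockout, 27.3 nt in the untreated Hen1 knockout, 27.5 nt in the Mili knockout and 28.1 nt in untreated wild type. Reads of 25 to 26 nt were 35.03% of the class in the untreated Hen1 knockout and 17.0% in untreated wild type. The shift was seen at fixed 5′ ends. Of 279 sets of antisense-only sequences that share their first 22 nt and have at least 20 reads in each library, 231 had a shorter mean length in the untreated Hen1 knockout, 36 a longer one and 12 the same, with a median difference of -0.66 nt. Between NaIO4-treated and untreated wild type the numbers were 141 shorter and 142 longer of 297.

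The Mroh2a end shown first makes this concrete. Its 29 nt form had 160 reads in the untreated Hen1 knockout and 534 in untreated wild type, and its 28 nt form had 607 and 398. The 29 nt form was thus 5.33-fold lower in share while the 28 nt form stood at 0.954 times. At this end the reads that match the transcript throughout averaged 27.2 nt in the untreated Hen1 knockout and 28.5 nt in untreated wild type. The Mfsd4a end averaged 26.5 nt and 29.4 nt, and the Tet2 end 25.9 nt and 28.8 nt. In all 12 leading 5′ ends the mean was shorter in the untreated Hen1 knockout, by as little as 27.02 against 27.03 nt on D10Wsu102e.

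**Figure D5:**
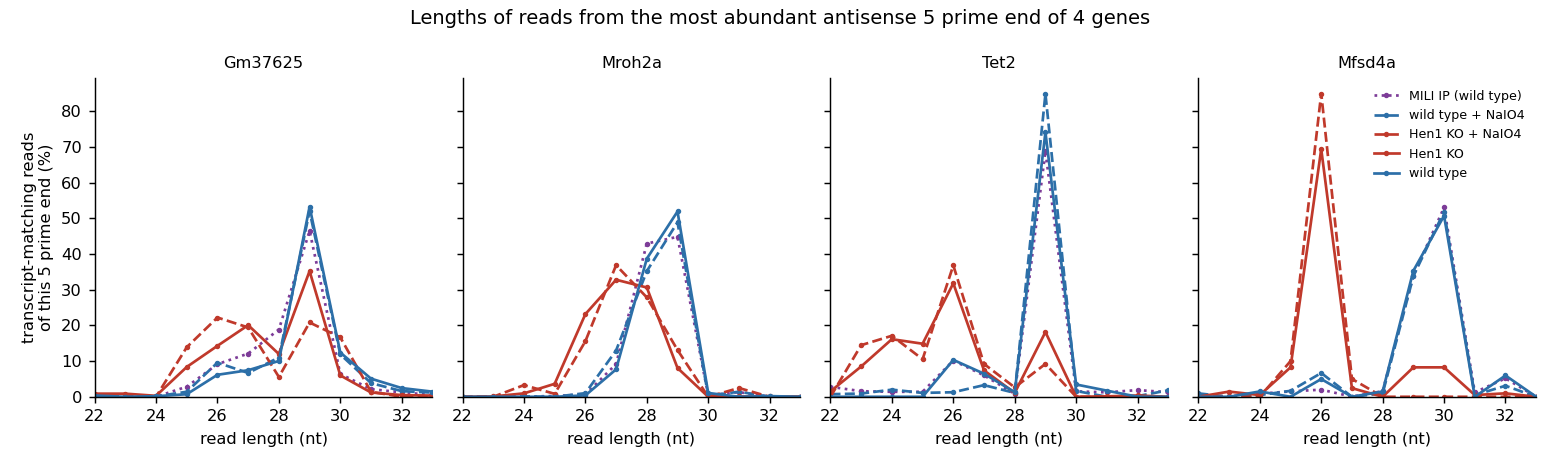
Lengths of the reads (x axis, nt) from the most abundant antisense 5′ end on Gm37625, Mroh2a, Tet2 and Mfsd4a, as a percent of the reads of that end that match the transcript throughout; lines are single libraries without error bars, and the Mili knockout has no such read. Mean lengths are shorter in the untreated Hen1 knockout than in untreated wild type at all 4 ends, for example 26.5 against 29.4 nt on Mfsd4a.

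Reads that end in 1 to 3 bases absent from the transcript were also counted at these 12 ends. They were more frequent in the untreated Hen1 knockout at 10 of the 12 and less frequent at 2, with a median of 12.6% against 8.27% in untreated wild type. At the first Gm37625 end they made up 32.2% of 2280 reads in the untreated Hen1 knockout and 8.11% of 2726 in untreated wild type. At the Tet2 end they were 19.7% and 8.85%, and at the Mroh2a end 9.94% and 3.65%. Of the 734 such reads at that Gm37625 end in the Hen1 knockout, 413 had added T only and 180 added A only. With NaIO4 they were less frequent in wild type at 11 of the 12 ends. A sequencing error in the last bases counts as an added base, and no genome sequence was used, so a base past an exon edge can count as well. Each end was compared with 1 transcript, so a read from a similar copy that differs in its last bases can count too. The Tet2 sequence shown above matches some transcript in the sense direction at 1 mismatch, while the Mroh2a and first Gm37625 sequences do not.

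Genes chosen for their function were set beside all 21951 protein-coding genes, of which 40.7% had any antisense-only read and 3.15% had 50 or more over all libraries. Of 23 piRNA pathway genes 7 had any, with Henmt1 itself highest at 36 reads over all libraries, and none had 50. Of 25 genes of spermatogonial stem cells 11 had any, with Ret, the receptor of the growth factor GDNF, highest at 17. Of 9 genes derived from retroelements or tied to their silencing 5 had any, with Uhrf1, of the second kind, highest at 9. Of 81 histone genes 16 had any, and only Hist1h4i passed 50: it had 27 reads in the immunoprecipitate, 13 in wild type with NaIO4, 2 in the NaIO4-treated Hen1 knockout, 20 in the untreated Hen1 knockout, 2 in the Mili knockout and 2 in untreated wild type. Of the markers of other cells, feeder fibroblast markers had reads for 3 of 10 genes, from 0 to 2 per library, Sertoli cell markers for 3 of 6 (0 to 5) and blood markers for 1 of 5 (0 to 2). Germ cell markers had reads for 2 of 9 genes (0 to 14 per library), Ret and Gfra1, which the stem cell list holds as well. Reads opposite a gene do not measure its expression, so these markers do not check the cell type.

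By gene, the comparisons gave the following counts over genes with 50 or more reads over the pair of libraries. Of 631 genes, 310 (49.1%) were at least 2-fold higher in the immunoprecipitate and 41 (6.5%) lower. With NaIO4 in wild type 109 of 328 (33.2%) were higher and 9 (2.74%) lower, and with NaIO4 in the Hen1 knockout 11 of 222 (4.95%) were higher and 178 (80.2%) lower. In the untreated Hen1 knockout 97 of 321 (30.2%) were higher and 24 (7.48%) lower than in untreated wild type. In the Mili knockout 0 of 109 (0%) were higher and 93 (85.3%) lower. With shares of the piRNA-like reads the numbers higher and lower were 145 and 96 in the immunoprecipitate, 33 and 28 with NaIO4 in wild type, 22 and 64 with NaIO4 in the Hen1 knockout, 50 and 49 in the untreated Hen1 knockout, and 15 and 93 in the Mili knockout.

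Of those 109 genes, 10 had a share in the Mili knockout at or above that in untreated wild type. Of these, Hes7 had 687 reads in the Mili knockout and 1022 in untreated wild type, almost all in its tRNA gene. Car9, a carbonic anhydrase, had 126 reads in the Mili knockout and 129 in untreated wild type, Gm10800 had 132 and 106, and mt-Nd4, a subunit of respiratory complex I, had 83 and 112. The immunoprecipitate counts of the 10 ran from 2 to 352. They were 2 for mt-Nd4, 4 for Gm10800 and 7 for Car9, but 132 for Gm20628 and 174 for Gm48356. mt-Nd5, of the same complex, had 10 reads in the immunoprecipitate, 233 in the Mili knockout and 368 in untreated wild type, which put it just below an equal share. With NaIO4 in the Hen1 knockout mt-Nd5, mt-Nd4 and Gm10800 stood at 2.55, 2.91 and 2.94 times the untreated share. Car9 went the other way, with 3 reads in the treated and 99 in the untreated Hen1 knockout, 7.34-fold lower in share. mt-Cytb had 8 and 73 reads and Ccnd2 5 and 39, so the genes kept in the Mili knockout did not move together.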

How the data were processed

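Small RNA libraries of 18 to 35 nt reads were compared between 6 samples, 1 per group. The authors deposited a count for each distinct sequence in each library, and these counts are not normalized. Bowtie and the mm10 build (GRCm38) are named in the submitters' processing notes, and settings for trimming and alignment were not given in the sources used here. Per the labels' protocols 5 libraries hold spike-ins; these were not used. Sequences were matched exactly, on both strands, to GENCODE M21 transcripts, and tRNA genes were taken from RefSeq (GRCm38.p6). Shares are of 18 to 35 nt reads, with 95% Clopper-Pearson intervals, and ratios of shares have intervals on the log scale; all cover counting error only. A sequence was called at a 2-fold difference from 20 reads over the pair of libraries and a gene from 50, with 0.5 added to each count. These reads are reached at a lower share in the deeper library of a pair, which favours calls of higher in that library. A count of 0 was given a floor of 3 reads. Genes named in the text are the 12 with the most single-gene reads in the immunoprecipitate, the 5 in untreated wild type and the 5 in the Mili knockout, and list genes with at least 50 reads; the gene with the most reads in a list, and others of the genes kept in the Mili knockout, were named after their values were seen. The matching was tested on simulated data. The tools were numba 0.67.0, scipy 1.17.1, pandas 2.3.3, numpy 2.4.6 and matplotlib 3.10.9 under Python 3.11.15. Alternatives changed the length range, the matching, the denominator, the weighting by reads and the thresholds. The members and gene lists were chosen with earlier results of these data known.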

Additional observations from a re-analysis of the deposited data

Results flagged for a closer look

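NaIO4 moved some values in opposite directions in Hen1 knockout and wild-type cells. The values are the NaIO4 ratio of shares in the Hen1 knockout over that in wild type, and with 1 library per group the difference was not tested. For all antisense-only reads the value was 0.238, and 0.943 as shares of the piRNA-like reads. The genes that were lower with NaIO4 in the Hen1 knockout and higher with it in wild type were Gm37625 (0.159), Mfsd4a (0.149), Mroh2a (0.154), D10Wsu102e (0.178), Btbd7 (0.0950), Gm18609 (0.153), Gm26809 (0.0680), Tet2 (0.139), Gm47652 (0.147), Gm48009 (0.102), Bcl2l13 (0.122), Gtpbp8 (0.101) and the histone gene Hist1h4i (0.0971). The genes that went the other way were Hes7 (2.48), mt-Nd5 (5.86), Gm10800 (4.65) and mt-Nd4 (3.41). For mt-Nd4 the ratio in wild type was 0.852 with an interval of 0.663 to 1.10, which spans an equal share. Hist1h4i rests on 2 reads in the treated Hen1 knockout and 2 in untreated wild type.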

How the results depend on the processing

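No paired analysis was possible because each group has 1 library, and for the same reason no library could be left out of a group. The causes of the changes below were not tested. Values are given in the order of wild type with NaIO4 over untreated, Hen1 knockout with NaIO4 over untreated, untreated Hen1 knockout over wild type, Mili knockout over wild type, immunoprecipitate over wild type, and the ratio of the NaIO4 ratios; they were 1.58, 0.375, 1.60, 0.118, 1.65 and 0.238, and those not listed moved by less than their interval. Per microRNA read they were 20.6, 1.07, 4.18, 0.0666, 37.4 and 0.0522, so the Hen1 knockout value with NaIO4 reversed. As shares of piRNA-like reads they were 1.02, 0.959, 1.13, 0.383, 0.944 and 0.943, and with each distinct sequence counted once 1.05, 0.867, 0.986, 0.361, 0.902 and 0.829; the immunoprecipitate value reversed in both and the untreated Hen1 knockout value in the second of these. With 1 gene matched they were 1.60, 0.345, 1.64, 0.0994, 1.69 and 0.215. Over reads of any length they were 1.63, 0.362, 1.64, 1.71 and 0.222 without the Mili knockout. With lengths of 24 to 32 nt they were 1.54, 0.395, 0.142, 1.61 and 0.257 without the untreated Hen1 knockout. Without sequences that have a sense match at 1 mismatch they were 1.61, 1.49, 0.126, 1.77 and 0.232, without the Hen1 knockout with NaIO4. Without the 10 leading sequences wild type with NaIO4 stood at 1.60, the untreated Hen1 knockout at 1.67, the Mili knockout at 0.109 and the immunoprecipitate at 1.63. Sequences with 2 or more reads gave 1.59 for wild type with NaIO4, 1.56 for the untreated Hen1 knockout, 1.499 for the immunoprecipitate and 0.232 for the ratio of ratios. In 2 settings chosen after seeing the data, without mitochondrial and tRNA gene sequences they were 1.63, 0.349, 1.64, 0.0753, 1.72 and 0.214, and without Gm37625 they were 0.412, 1.505, 0.144, 1.76 and 0.262 from the Hen1 knockout with NaIO4 onward.

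In the immunoprecipitate T at base 1 (87.6%) was 86.5% without the 10 leading sequences, 88.7% without sense matches at 1 mismatch, 88.1% with 1 gene, 87.2% at 24 to 32 nt, 89.3% with at least 2 reads, 78.2% by distinct sequence and 87.2% without Gm37625. A at base 10 (36.6%) was 33.01%, 37.4%, 37.3%, 36.4%, 37.6%, 31.4% and 35.3% in the same settings. Partners at 10 nt (11.4%) were 7.61% without sense matches at 1 mismatch, 9.57% with 1 gene, 11.8% at 24 to 32 nt, 14.2% with at least 2 reads, 19.4% by reads, 2.59% with partners of at least 10 reads and 10.8% without the 5 leading genes.

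Counts of antisense-only sequences past the threshold were 464, 693, 679, 255 and 1143 in the 5 comparisons, in the order above. They are sequences lower with NaIO4 in the Hen1 knockout and in the Mili knockout, and sequences higher otherwise. Over all piRNA-like sequences the same calls took 18995 of 43790, 19361 of 26496, 17236 of 38422, 8582 of 12343 and 59916 of 106092. At 4-fold the antisense-only counts were 145, 448, 446 and 712, with the Mili knockout within 1.5 times. Over all piRNA-like sequences they were 6985, 12913, 11141 and 38161 of the same totals. With at least 100 reads they were 52 of 139, 127 of 140, 118 of 177, 30 of 35 and 210 of 363. Over all piRNA-like sequences these were 1757 of 5154, 2502 of 3038, 1909 of 4472, 775 of 1720 and 8546 of 14013. As shares of piRNA-like reads the antisense-only counts were 222 with NaIO4 in wild type, where sequences lower numbered 128 against 51, and 390 with NaIO4 in the Hen1 knockout. Over all piRNA-like sequences they were 10211 of 43790, with 6220 lower, and 11250 of 26496. Depth limits the NaIO4-treated Hen1 knockout most, where 0 reads allow a share of up to 0.000115%.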
